A study of Ovis aries with 9 samples.

Results

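RAB genes were defined here as the RefSeq sheep genes whose symbol is RAB followed directly by a number. The rule found 68 genes among the 21284 genes with mRNA transcripts in the expression table. Of the 68, 58 encode RAB GTPases and 10 encode proteins named after the RAB they bind or regulate (RAB11FIP1 to RAB11FIP5, RAB3GAP1, RAB3GAP2, RAB3IL1, RAB3IP and RAB5IF), which are described apart as partners. The tissue was hypothalamus of Dolang ewes kept under the same conditions, 3 animals at prepuberty (120 to 121 days of age), 3 at puberty (130 to 131 days) and 3 at postpuberty (150 to 151 days), with 1 library per animal, and stage had been assigned from daily observation of oestrous behaviour and the vulva. Libraries are named by stage and replicate (Prepuberty 1 to Postpuberty 3). Levels are in FPKM, a unit in which the fragments of a transcript are corrected for transcript length and library size, and were added up over the RefSeq transcripts of a gene. In bulk tissue of this kind, fewer cells of a type and less RNA per cell cannot be told apart.

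RAB proteins are small GTPases that mark the membranes of the secretory and endocytic routes. Each cycles between an inactive form bound to GDP and an active form bound to GTP, in which it recruits the tethers and motors that carry a vesicle to its target. Exchange factors switch a RAB on, GTPase activating proteins switch it off, and GDI extracts it from the membrane. In neurons RAB3 proteins sit on synaptic vesicles and on neuropeptide granules, and hypothalamic neurons release their hormones by regulated exocytosis of such granules.

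The libraries rested on between 19347227 (Puberty 2) and 23966519 (Prepuberty 3) mapped reads. Puberty 2 stood apart from the rest, with a median Spearman correlation of 0.707 with the other libraries against 0.892 to 0.923 for each of the others, and with 15577 genes above 0 against 17180 to 17763. It had 42441 transcripts above 0 against 67824 to 71787, and its FPKM summed over all genes was 377780 against 228754 to 260446. Whether its values were quantified in the same way as those of the other libraries was not tested. Results are therefore given with and without Puberty 2. Of 12 hypothalamus markers, 7 passed the filter used for the tests, and their levels were low or uneven. GNRH1 was listed at 0 in every library, SIM1 reached at most 0.111 FPKM, NKX2-1 at most 0.262, AGRP at most 0.169, PMCH at most 0.699, HCRT at most 1.68, OXT at most 4.81 and OTP at most 4.91. TRH ranged from 0.824 to 36.8 FPKM, NPY from 0.222 to 22.7, POMC from 2.09 to 22.4 and AVP from 0.551 to 10.4. The 12 genes together summed to between 12.8 and 56.8 FPKM. The label of the tissue is used as given. Of 14 neuron markers, 13 had values, and their summed FPKM ranged from 690 to 2497 over the 8 libraries other than Puberty 2, which had 693. The mean log2(FPKM + 1) of these markers was 4.77 in Prepuberty 1, 4.73 in Postpuberty 1 and 4.13 in Puberty 2, and between 5.77 and 6.34 in the other libraries, so the low libraries came 1 from each stage. The choroid plexus marker TTR was at 7594 FPKM in Puberty 3 and at most 723 elsewhere.

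Most RAB GTPases were expressed, and a few carried most of the signal. Over the 8 libraries without Puberty 2, 23 of the 58 had a mean of at least 10 FPKM, 27 had a mean between 1 and 10, and 8 were below 1. Means of single genes are over these 8 libraries unless a stage is named. The 10 most abundant made up 60.7% of the summed level of all 58. The order began with RAB7A (mean 92.0 FPKM ± 15.5, SD, n = 8), RAB3A (83.8 ± 38.6), RAB2A (64.9 ± 8.41), RAB5C (60.4 ± 5.10) and RAB11B (59.3 ± 8.23), and the spreads of neighbours in this order overlapped. The summed level of the 58 genes lay between 856 and 1150 FPKM in the 8 libraries and was 830 in Puberty 2. As a share of the summed FPKM of all genes it was 0.346 to 0.479% in the 8 libraries and 0.220% in Puberty 2. A mean of at least 0.5 FPKM over all 9 libraries, the level required for the tests, was reached by 50 of the GTPases and by all 10 partners. The coefficient of variation of the 50 had a median of 22.7% over the 8 libraries, and that of all 13696 genes tested was 24.8%.

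**Figure D1:**
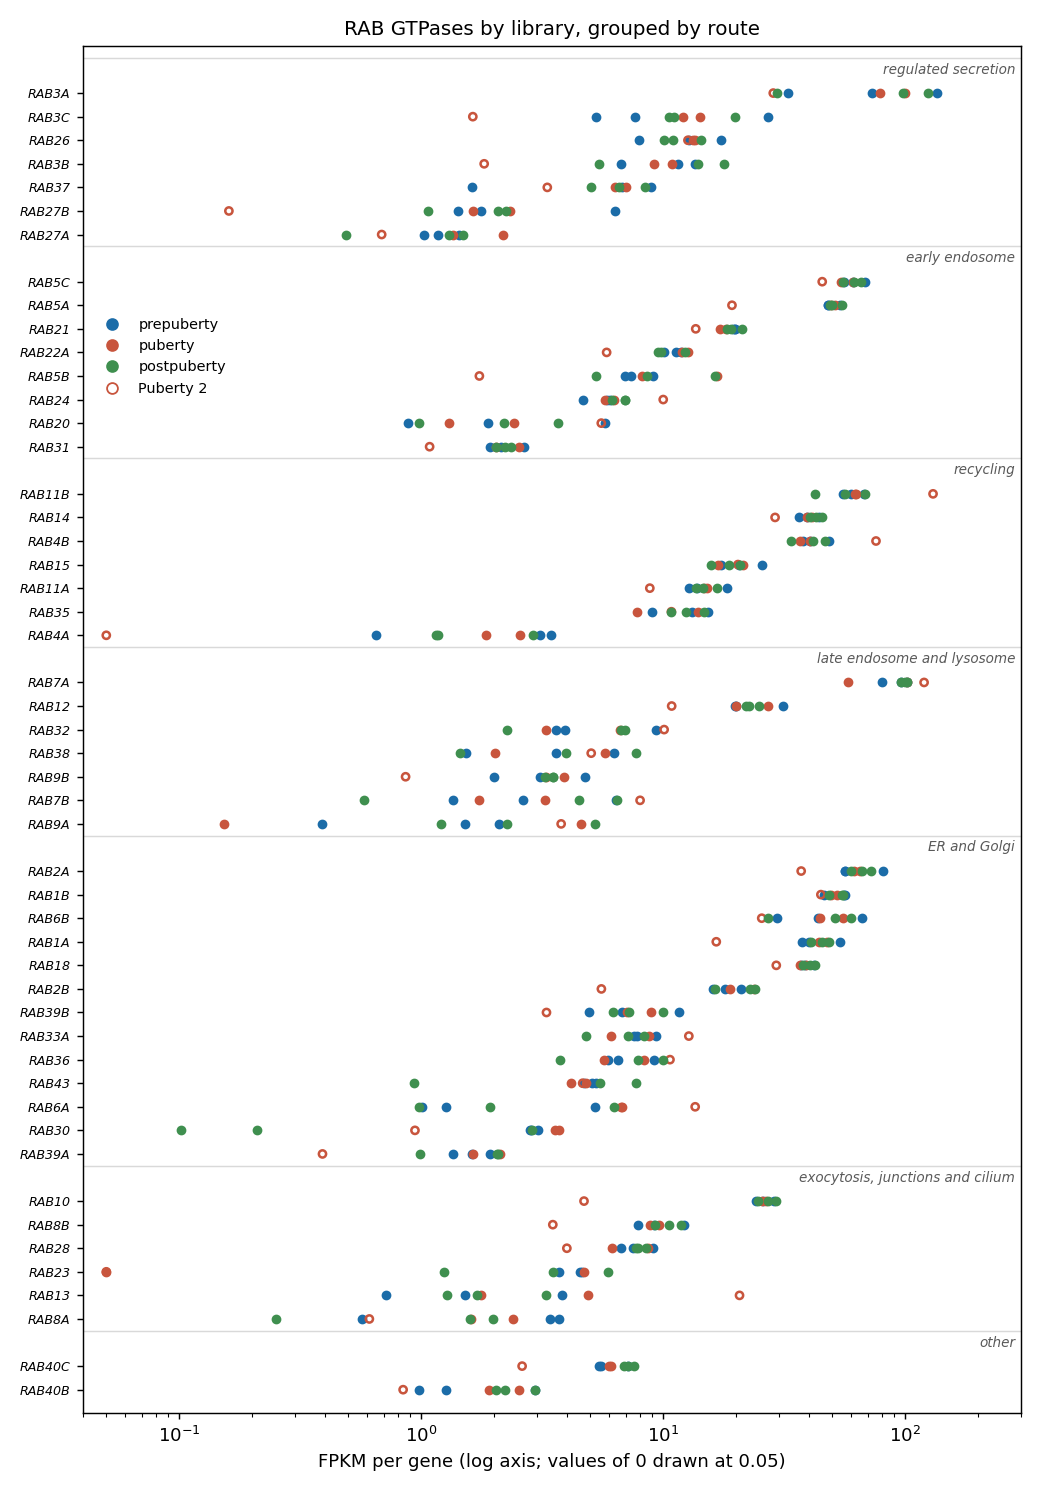
FPKM of the 50 RAB GTPases that passed the filter, on a log axis, with 1 point per library coloured by stage and Puberty 2 as an open circle; genes are grouped by the route on which they act and ordered by mean level. Without Puberty 2, RAB5A and RAB18 lie in narrow bands and RAB3A spreads from 29.6 to 135, and Puberty 2 lies outside the others for most genes.

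Regulated secretion was the most variable route. Its 7 genes summed to 57.6, 210 and 114 FPKM at prepuberty, 148, 48.8 and 124 at puberty and 63.6, 183 and 147 at postpuberty. That is a ratio of 3.64 between the highest and the lowest of the 8 libraries, against 1.07 for the early endosome genes. The low sums were those of Prepuberty 1, Postpuberty 1 and Puberty 2, and every stage held both low and high libraries. RAB3A (chromosome 5, 4781987 to 4787659, in the assembly ARS-UI_Ramb_v3.0, as for all positions below) is the RAB of synaptic vesicles. It measured 32.8, 135 and 72.9 FPKM at prepuberty, 99.8, 28.5 and 78.5 at puberty and 29.6, 124 and 97.8 at postpuberty. The 3 stages overlapped, and the same 3 libraries were low. RAB3C, a close relative that also sits on synaptic vesicles, ranged from 5.28 (Prepuberty 1) to 27.2 FPKM (Prepuberty 2) among the 8 libraries and was 1.64 in Puberty 2. RAB3B, the third member of the family, measured 6.71, 13.5 and 11.6 FPKM at prepuberty, 10.8, 1.82 and 9.14 at puberty and 5.42, 13.9 and 17.8 at postpuberty. RAB3A exceeded RAB3B by a factor of 4.89 to 10.0 and RAB3C by a factor of 2.66 to 9.50 in each of the 8 libraries. RAB26, a RAB of secretory granules, lay between 7.98 (Prepuberty 1) and 17.3 FPKM (Prepuberty 2). RAB37, another RAB of secretory granules, had a mean of 6.33 FPKM and its lowest value, 1.63, in Prepuberty 1. RAB27A and RAB27B, which dock granules at the plasma membrane, were low, with means of 1.31 and 2.36 FPKM.

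Genes of the ER and the Golgi gave 30.2 to 32.8% of the summed RAB level in each of the 8 libraries, the largest share of any route. RAB2A (chromosome 9, 39157221 to 39222363), which acts at the Golgi, ranged from 56.5 to 81.3 FPKM in the 8 libraries and was 37.2 in Puberty 2. RAB1B and RAB1A carry vesicles from the ER to the Golgi, and had means of 52.3 and 44.8 FPKM. RAB6B (chromosome 1, 256109434 to 256173429) is the brain form of the RAB6 proteins of retrograde Golgi transport. It measured 29.5, 66.4 and 43.8 FPKM at prepuberty, 55.6, 25.6 and 44.6 at puberty and 27.2, 59.9 and 51.1 at postpuberty. Its low libraries were those in which RAB3A was low. RAB6A, the widely expressed form, was 6.64 to 52.3 times lower than RAB6B in the 8 libraries and 1.88 times lower in Puberty 2. RAB39B and RAB39A, a pair of RABs of which RAB39B is a gene of neurons, had means of 7.85 and 1.72 FPKM, and RAB39B was the higher of the pair in 8 of 8 libraries. RAB18, a RAB of the ER and lipid droplets, ranged from 36.8 to 42.6 FPKM in the 8 libraries and was 29.4 in Puberty 2.

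The sum of the early endosome genes varied least of the routes over the 8 libraries, although single genes did vary. It lay between 157 and 168 FPKM and was 103 in Puberty 2. RAB5A (chromosome 1, 278208719 to 278242018) and RAB5C (chromosome 11, 41990220 to 42012188) drive the fusion of endocytic vesicles with early endosomes. RAB5A ranged from 48.0 to 54.8 FPKM in the 8 libraries with a coefficient of variation of 5.05%, and was 19.3 in Puberty 2. RAB5C measured 68.3, 55.9 and 61.2 FPKM at prepuberty, 54.1, 45.5 and 61.1 at puberty and 61.7, 55.2 and 65.8 at postpuberty. RAB5C was the higher of the pair in every library, but the order of its libraries differed, with Prepuberty 1 highest. RAB21, which takes up integrins, ranged from 17.2 to 21.2 FPKM in the 8 libraries and was 13.6 in Puberty 2. RAB20, a RAB of phagosomes and endosomes, was low and variable, with 5.77, 0.886 and 1.88 FPKM at prepuberty, 1.30, 5.55 and 2.43 at puberty and 2.21, 0.979 and 3.68 at postpuberty. RAB5B, the third RAB5 gene, ranged from 5.27 to 16.6 FPKM in the 8 libraries, and its sum was spread over 50 annotated transcripts, of which 35 had a value above 0. It was 1.74 FPKM in Puberty 2.

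On the recycling route RAB11B (chromosome 5, 14763216 to 14772922), a RAB of recycling endosomes, measured 55.3, 67.4 and 59.9 FPKM at prepuberty, 62.7, 131 and 62.3 at puberty and 42.4, 68.1 and 56.6 at postpuberty. The highest value was that of Puberty 2. How reads shared by close relatives were divided between them was not tested, and this bears on every ratio between such a pair. RAB11A, its close relative, was 3.10 to 4.70 times lower in the 8 libraries and 14.8 times lower in Puberty 2. RAB14, which links endosomes and the Golgi, ranged from 36.4 to 45.5 FPKM in the 8 libraries and was 29.0 in Puberty 2. RAB4B, a RAB of fast recycling, ranged from 33.8 to 48.3 FPKM in the 8 libraries and was 75.8 in Puberty 2, while RAB4A was at most 3.45 and was listed at 0 in Puberty 2.

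RAB7A (chromosome 19, 59078985 to 59124301), which moves cargo from late endosomes to lysosomes, led the late endosome and lysosome route and all 58 GTPases. It measured 102, 96.1 and 80.3 FPKM at prepuberty, 57.9, 120 and 102 at puberty and 96.2, 99.9 and 101 at postpuberty. Only Puberty 1 fell below 80. RAB12, which carries receptors from recycling endosomes to lysosomes, ranged from 19.8 to 31.4 FPKM in the 8 libraries and was 10.9 in Puberty 2. RAB32 and RAB38 serve lysosome-related organelles, and RAB7B is a RAB of late endosomes and the Golgi described in myeloid cells. RAB32 (chromosome 8, 71046849 to 71072833) measured 9.31, 3.62 and 3.93 FPKM at prepuberty, 3.28, 10.1 and 6.66 at puberty and 6.93, 2.26 and 6.71 at postpuberty. RAB7B (chromosome 12, 3551838 to 3591955) measured 6.39, 1.35 and 2.63 FPKM at prepuberty, 1.74, 8.03 and 3.25 at puberty and 4.48, 0.583 and 6.43 at postpuberty. In FPKM, with no scaling between libraries, the pair was lowest in Postpuberty 2 and highest in Puberty 2. Among the other 8 libraries RAB32 was highest in Prepuberty 1 and RAB7B in Postpuberty 3.

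Of the RABs of exocytosis, junctions and the cilium, RAB10 was the most abundant, at 24.1 to 29.3 FPKM in the 8 libraries and 4.71 in Puberty 2. RAB8B, a RAB of polarised exocytosis, ranged from 7.91 to 12.2 FPKM in the 8 libraries and was 3.502 in Puberty 2. RAB28, a RAB of the cilium, ranged from 6.15 to 9.12 FPKM in the 8 libraries and was 4.003 in Puberty 2. RAB13, a RAB of tight junctions, was at most 4.90 FPKM in the 8 libraries and 20.7 in Puberty 2. RAB40C and RAB40B, which carry a SOCS box and act in ubiquitin ligases, had means of 6.48 and 2.11 FPKM, and RAB42 a mean of 0.111. The 8 GTPases that did not pass the filter were RAB29, RAB33B, RAB19, RAB25, RAB42, RAB34, RAB44 and RAB17. The lowest were RAB34 (mean 0.0784 FPKM over the 8 libraries, 2.13 in Puberty 2 and 0 in 7 libraries), RAB44 (0.00782) and RAB17 (0.00462). No RAB gene was listed at 0 in all libraries.

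Among the partners RAB5IF, a RAB5-interacting factor by name, and RAB11FIP4 and RAB11FIP5, which bind active RAB11, were the most abundant, with means of 37.4, 33.8 and 12.2 FPKM. RAB3GAP1 and RAB3GAP2 form the complex that switches RAB3 off. RAB3GAP2 ranged from 8.16 to 11.9 FPKM in the 8 libraries and was 2.26 in Puberty 2. RAB3GAP1 measured 11.1, 17.5 and 10.9 FPKM at prepuberty, 3.01, 0.527 and 14.2 at puberty and 9.38, 8.66 and 13.1 at postpuberty, so that 2 of the 3 puberty libraries were below all others.

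To see which RAB genes followed the neuronal or glial content of the samples, the log2(FPKM + 1) of each gene was correlated with the mean of each marker list over the 8 libraries without Puberty 2, with two-sided p-values from all orders of the libraries adjusted over 13696 genes. With the neuron marker mean, 10 of 60 RAB genes (16.7%) had a Pearson r of at least 0.8, against 7.87% of all genes, and 0 had an r of -0.8 or less, against 5.04%, with RAB10 at -0.7996 just short of this limit. Without Postpuberty 3 as well, 12 (20%) reached 0.8, against 9.98% of all genes, and 7 (RAB7B, RAB8B, RAB10, RAB20, RAB32, RAB5C and RAB11FIP1; 11.7%) were at -0.8 or less, against 10.6%. The 10 were 4 of the 7 regulated secretion genes (RAB3A, RAB3B, RAB26 and RAB37), 4 of the 13 ER and Golgi genes (RAB6B, RAB39A, RAB2B and RAB39B), RAB11B and the partner RAB11FIP5. The adjusted exact permutation p was below 0.05 for 3 of the 60, against 2.78% of all genes. RAB3A had the highest r, 0.99 (Spearman's rho 0.95, exact permutation p = 0.000149 for r and 0.00114 for rho, adjusted p = 0.0355 for r). RAB6B had an r of 0.98 (rho 0.95, exact permutation p = 0.000248 for r and 0.00114 for rho, adjusted p = 0.0355 for r). RAB11FIP5 had an r of 0.95 (rho 0.95, exact permutation p = 0.00067 for r and 0.00114 for rho, adjusted p = 0.0404 for r). RAB3B and RAB39A followed with an r of 0.92 and 0.91 and adjusted exact permutation p-values of 0.0548 and 0.0576.

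Prepuberty 1 and Postpuberty 1 lay apart from the other 6 libraries in the neuron marker mean, so r was also taken over those 6 alone. RAB3A then had an r of 0.94 (rho 0.89, exact permutation p = 0.00972 for r) and RAB6B an r of 0.93 (rho 0.89, p = 0.0111 by the same exact test). The adjusted exact permutation p was 0.4135 for both, so neither passed over 6 libraries. Over these 6 libraries 9 RAB genes reached 0.8, against 7.70% of all genes, and 4 of them (RAB3A, RAB6B, RAB39B and RAB11FIP5) were among the 10 above. RAB3B had an r of 0.69, RAB39A of 0.68 and RAB11B of 0.47 over the 6. RAB4B, by contrast, had an r of 0.68 over 8 libraries and 0.96 over 6. With stage means subtracted, the r of RAB3A was 0.99 and that of RAB6B 0.98. With Puberty 2 added, RAB3A had an r of 0.97, RAB3B of 0.94, RAB39A of 0.93 and RAB11B of -0.31. Of the other abundant genes, RAB5A had an r of 0.52 over the 8 libraries, RAB1A of 0.63, RAB2A of 0.69 (0.82 over the 6) and RAB7A of -0.22.

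**Figure D2:**
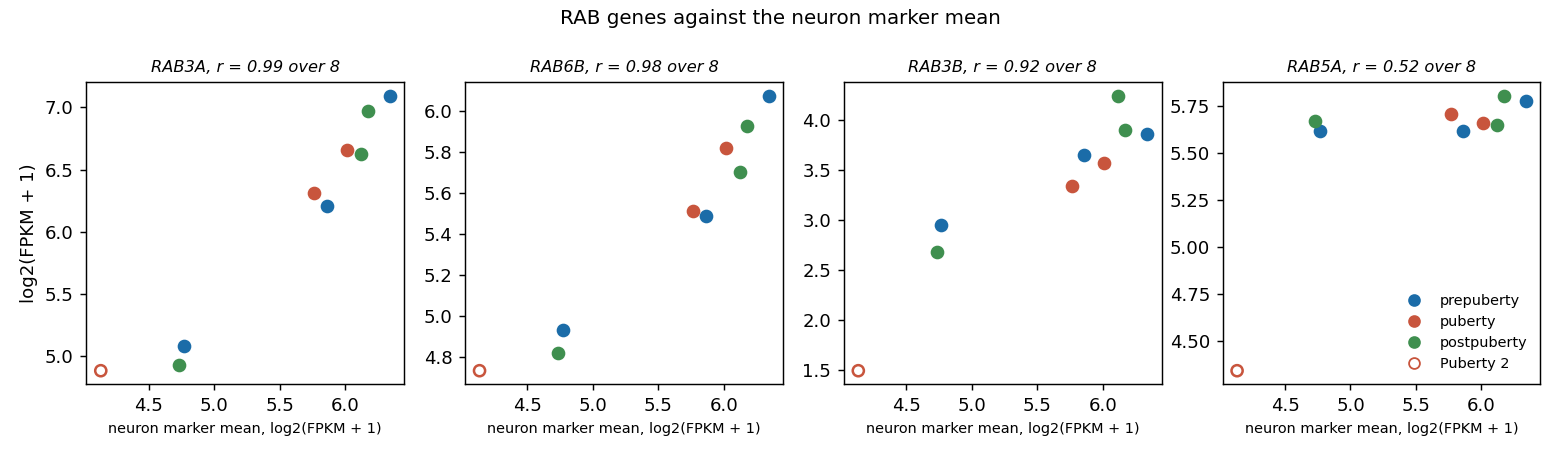
log2(FPKM + 1) of RAB3A, RAB6B, RAB3B and RAB5A against the neuron marker mean, 1 point per library coloured by stage, with Puberty 2 as an open circle that is left out of r. RAB3A and RAB6B rise along the whole axis (r of 0.99 and 0.98), while RAB5A stays near 5.7 in the 8 libraries.

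The lowest r with the neuron marker mean belonged to RAB10 (-0.7996), RAB32 (-0.72), RAB20 (-0.64), RAB7B (-0.63) and RAB8B (-0.62). None had an adjusted exact permutation p below 0.05, the smallest being 0.151 for RAB10. Over the 6 libraries RAB10 had an r of 0.08, so its relation rests on the pair left out, and with Puberty 2 added to the 8 it had an r of 0.60. The other 4 all had an r above 0.85 with the mean of 10 microglia markers, which ranged from 3.56 (Postpuberty 2) to 5.51 (Prepuberty 1). That list was examined after the data had been seen.

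With the microglia marker mean, 8 of 60 RAB genes (13.3%) had an r of at least 0.8, against 7.89% of all genes, and 2 had an r of -0.8 or less (RAB26 and RAB5IF), against 2.38%. The 8 were RAB7B, RAB32 and RAB38 of the late endosome and lysosome route, RAB5C and RAB20 of the early endosome, RAB8B, RAB33A and the partner RAB11FIP1. The adjusted exact permutation p was below 0.05 for 4 of the 60, against 1.37% of all genes. RAB7B had an r of 0.96 (rho 0.95, exact permutation p = 0.000174 for r and 0.00114 for rho, adjusted p = 0.0403 for r). RAB5C had an r of 0.95 (rho 0.95, exact permutation p = 0.000347 for r and 0.00114 for rho, adjusted p = 0.0436 for r). RAB20 had an r of 0.95 (rho 0.90, exact permutation p = 0.000521 for r and 0.00456 for rho, adjusted p = 0.0479 for r). RAB11FIP1 had an r of 0.92 (rho 0.95, exact permutation p = 0.000446 for r and 0.00114 for rho, adjusted p = 0.0467 for r). Without the 2 libraries farthest from the median (Prepuberty 1 and Postpuberty 2), 6 of the 60 (10%) had an r of at least 0.8, near the 7.85% of all genes. These 6 were among the 8 above, of which RAB32 and RAB33A had an r of 0.76 and 0.59. The smallest adjusted exact permutation p of a RAB gene was then 0.4153. With Puberty 2 added, RAB7B kept an r of 0.85 and RAB5C had 0.59.

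**Figure D3:**
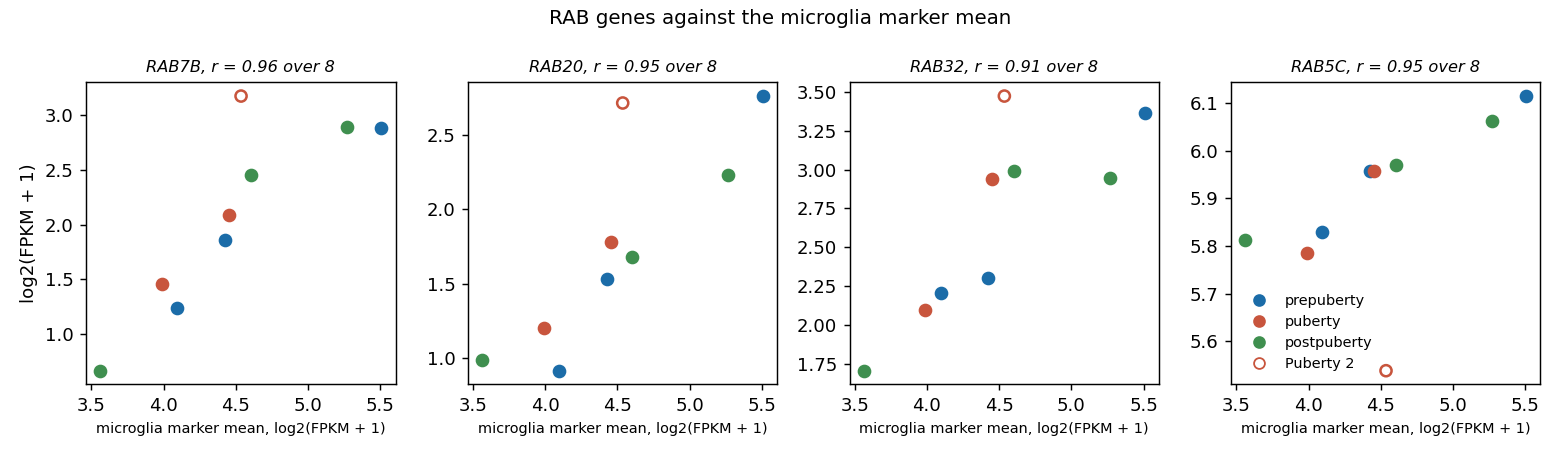
log2(FPKM + 1) of RAB7B, RAB20, RAB32 and RAB5C against the microglia marker mean, 1 point per library coloured by stage, with Puberty 2 as an open circle that is left out of r. The 8 libraries lie near a rising line for each gene (r between 0.91 and 0.96), and the vertical range of RAB5C is far narrower than that of RAB7B.

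With the oligodendrocyte marker mean, 0 of 60 RAB genes had an r of at least 0.8 (3.05% of all genes), and 12 (20.0%) had an r of -0.8 or less (10.3% of all genes). The lowest were RAB11FIP5 (-0.96), RAB1A (-0.91), RAB6B (-0.91) and RAB3A (-0.90). No adjusted exact permutation p was below 0.05, for the RAB genes or for any gene (0%). The neuron and oligodendrocyte marker means had an r of -0.86 with each other over the 8 libraries, the neuron and microglia means -0.56 and the neuron and endothelial means -0.92. With the endothelial marker mean, a list added after the data had been seen, 1 of 60 RAB genes (RAB32, 0.83) had an r of at least 0.8 (7.57% of all genes), and 12 (20%) had an r of -0.8 or less (10.8% of all genes). The adjusted exact permutation p was below 0.05 for 9 of the 60 (15%), against 10.6% of all genes. RAB6B had an r of -0.97 (rho -0.95, exact permutation p = 9.92e-05 for r and 0.00114 for rho, adjusted p = 0.0153 for r). RAB39B had an r of -0.96 (rho -0.98, exact permutation p = 0.000223 for r and 0.000397 for rho, adjusted p = 0.0186 for r). RAB3A had an r of -0.95 (rho -0.95, exact permutation p = 0.000149 for r and 0.00114 for rho, adjusted p = 0.0167 for r). The adjusted p of RAB3A and RAB6B was thus smaller with the endothelial than with the neuron list. Without the 2 libraries farthest from the median (Prepuberty 1 and Prepuberty 2) RAB6B had an r of -0.96, RAB39B of -0.93 and RAB3A of -0.95, and the smallest adjusted exact permutation p of a RAB gene was 0.1859. The summed FPKM of the 8 endothelial markers was 683 in Puberty 2, of which CLDN5 gave 624, and 102 to 210 in the other libraries. Their mean log2(FPKM + 1), the measure used for r, was by contrast lowest in Puberty 2, at 3.22 against 3.26 to 4.15. With Puberty 2 added r was -0.45 for RAB6B, -0.23 for RAB39B and -0.46 for RAB3A. With the astrocyte marker mean, 0 of 60 RAB genes had an r of at least 0.8 (0.307% of all genes) or of -0.8 or less (0.803%), and no adjusted exact permutation p was below 0.05, for the RAB genes or for any gene (0%). The lists share much of their variation, and which cell type a RAB gene follows was not tested. The median r with the neuron marker mean was 0.81 for the 7 regulated secretion genes, 0.63 for the 13 ER and Golgi genes and 0.61 for the 7 recycling genes. It was -0.24 for the 8 early endosome genes, -0.22 for the 7 late endosome and lysosome genes and -0.32 for the 6 exocytosis, junctions and cilium genes. For all genes it was -0.09.

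**Figure D4:**
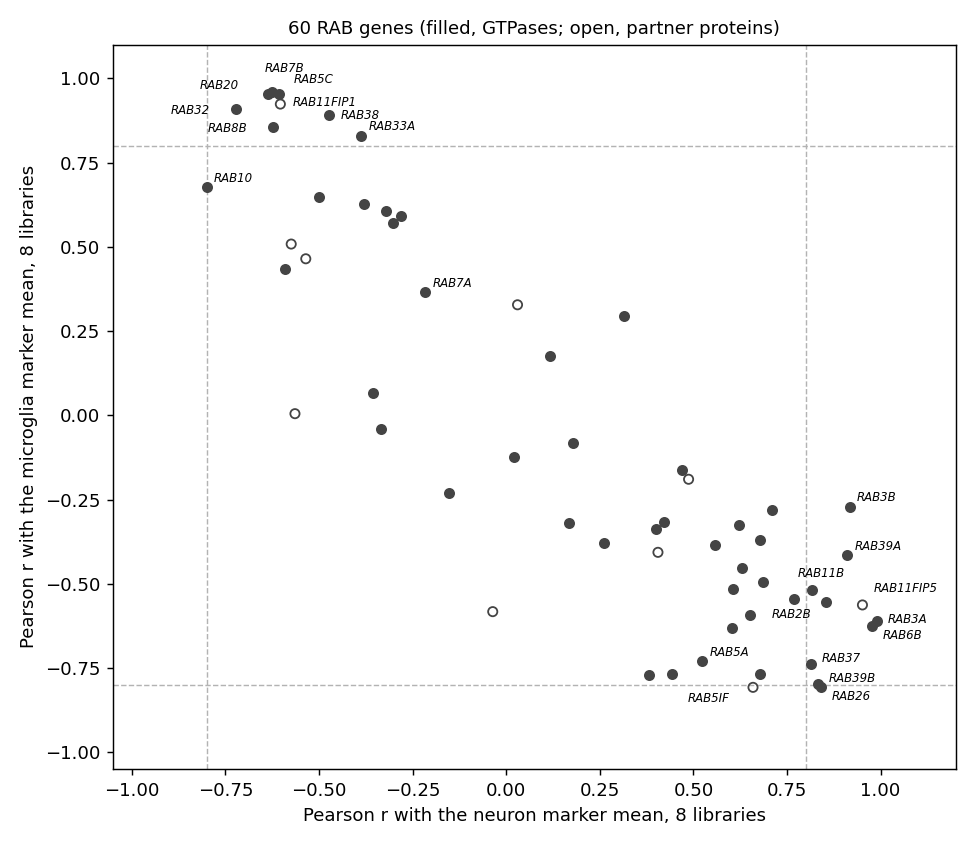
Pearson r of 60 RAB genes with the neuron marker mean (horizontal) and the microglia marker mean (vertical) over 8 libraries, with dashed lines at -0.8 and 0.8; filled points are GTPases and open points partners. RAB3A and RAB6B lie at the right edge, and RAB7B, RAB20, RAB5C and RAB32 at the upper left.

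The comparison of stages asked whether any RAB gene changed at puberty. With limma on log2(FPKM + 1) and all 9 libraries, 0 of 60 RAB genes passed an absolute log2 fold change of 1 and an adjusted p below 0.05 in prepuberty versus puberty (0% of all genes), puberty versus postpuberty (0%) or prepuberty versus postpuberty (0%). At an unadjusted p below 0.05 the RAB genes numbered 3, 1 and 1, which is 5%, 1.67% and 1.67%, against 1.64%, 2% and 0.73% of all genes. Without Puberty 2 they numbered 0, 1 and 1, against 1.55%, 1.97% and 1.79% of all genes. The median log2 fold change of the 60 was 0.17, -0.22 and -0.02 in the 3 comparisons (first stage minus second), beside 0.15, -0.20 and -0.05 for all 13696 genes. Without Puberty 2 the medians were -0.01, 0.01 and -0.02, beside -0.02, -0.03 and -0.05.

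The stages of a RAB gene did not overlap for 3 genes in prepuberty versus puberty (5%, against 4.94% of all genes), 4 in puberty versus postpuberty (6.67% against 7.15%) and 1 in prepuberty versus postpuberty (1.67% against 4.4%). Without Puberty 2 the counts were 5 (8.33% against 11.3%) and 5 (8.33% against 13.7%) in the comparisons that involve puberty. With 3 animals in each stage, the smallest two-sided p of an exact permutation test is 0.1. RAB6A (chromosome 15, 51877840 to 51961312) had the smallest p of the RAB genes with all 9 libraries. It measured 1.27, 5.21 and 1.004 FPKM at prepuberty (mean 2.50 ± 2.36, SD, n = 3), 6.79, 13.6 and 6.72 at puberty (9.03 ± 3.94) and 1.94, 6.27 and 0.977 at postpuberty (3.06 ± 2.82). All puberty libraries lay above all others, with the second libraries of the other stages close below. The log2 fold change was -1.65 ± 0.58 (SE) in prepuberty versus puberty (limma, adjusted p = 0.839) and 1.46 ± 0.58 in puberty versus postpuberty (limma, adjusted p = 0.783). Without Puberty 2 it was -1.35 ± 0.64 and 1.16 ± 0.64 (limma, adjusted p = 0.9999 and 1), with an unadjusted p above 0.05 in both, and the stages still did not overlap. The sum of RAB6A comes from 2 transcripts, and 1 of them was listed at 0 in Prepuberty 3, Puberty 1 and Puberty 2.

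RAB21 lay at 19.9, 19.9 and 19.4 FPKM at prepuberty, 17.2, 13.6 and 18.2 at puberty and 21.2, 18.3 and 19.1 at postpuberty. Its puberty libraries lay below all others with and without Puberty 2, by a log2 fold change of 0.27 ± 0.21 from prepuberty (limma, adjusted p = 0.839), with Puberty 3 (18.2) close to Postpuberty 2 (18.3). RAB40C was lower at puberty (5.96, 2.61 and 6.09 FPKM) than at postpuberty (7.57, 7.13 and 6.90), and RAB11FIP3, which acts with RAB11 in cell division, was higher at puberty (4.69, 12.2 and 4.65) than at postpuberty (4.43, 3.31 and 3.94). RAB3IL1, an exchange factor partner, was higher at prepuberty (3.29, 3.22 and 3.70) than at puberty (2.79, 0.554 and 3.05). RAB24, a RAB linked to autophagy, was lower at prepuberty (5.88, 6.04 and 4.66) than at postpuberty (6.17, 6.96 and 6.95). These 5 genes had adjusted p-values of at least 0.783 in limma.

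RAB23, RAB3GAP1 and RAB30 had an unadjusted p below 0.05 in limma and were chosen for description after their values were seen. RAB23, a RAB of the cilium that restrains Hedgehog signalling, was listed at 0 in Puberty 1 and Puberty 2, at 4.72 FPKM in Puberty 3 and between 1.25 and 5.95 in the other stages (limma, prepuberty versus puberty, adjusted p = 0.839). RAB3GAP1 had a log2 fold change of 1.61 ± 0.69 in the same comparison (limma, adjusted p = 0.839). Neither had an unadjusted p below 0.05 without Puberty 2. RAB30, a RAB of the Golgi (chromosome 21, 12141700 to 12264512), measured 2.81, 3.04 and 2.85 FPKM at prepuberty, 3.72, 0.943 and 3.58 at puberty and 0.102, 0.209 and 2.87 at postpuberty. Only Postpuberty 1 and Postpuberty 2 were below 0.9, and Postpuberty 3 lay within the range of prepuberty. The main RAB30 transcript was at 0.0117 FPKM in Postpuberty 1 and listed at 0 in Postpuberty 2, against 2.33 to 3.57 in the rest of the 8 libraries. How reads were divided among transcripts, including those not counted, was not tested for RAB30 or RAB23. The log2 fold change of RAB30 was 1.17 ± 0.52 in prepuberty versus postpuberty (limma, adjusted p = 1) and, without Puberty 2, 1.43 ± 0.50 in puberty versus postpuberty (limma, adjusted p = 1).

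**Figure D5:**
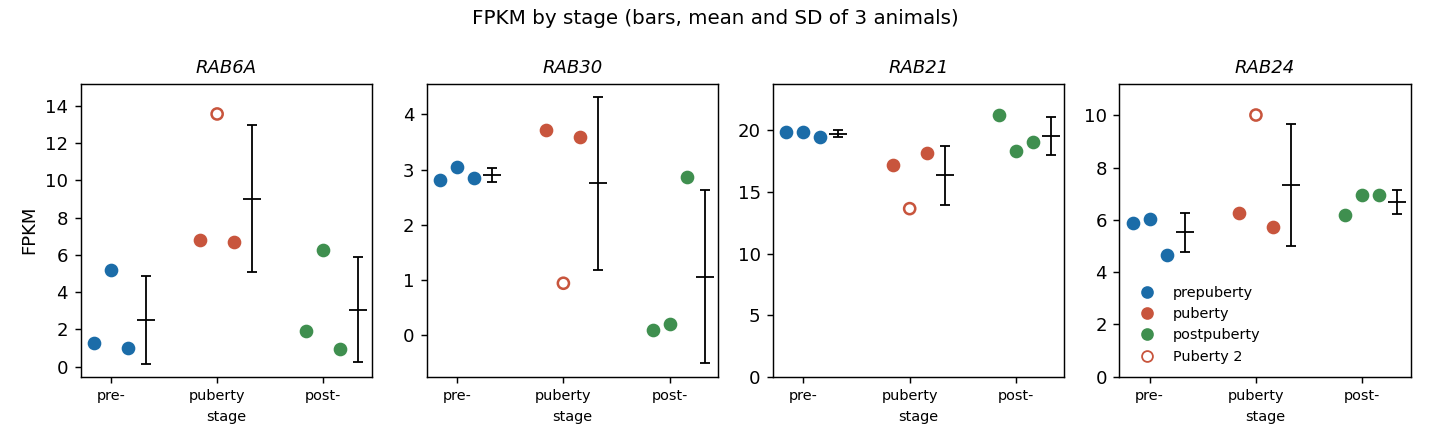
FPKM of RAB6A, RAB30, RAB21 and RAB24 by stage, with 1 point per animal, Puberty 2 as an open circle and the mean and SD of 3 animals beside the points. RAB6A at puberty (6.72 to 13.6) lies above both other stages, RAB21 at puberty lies just below them, and none of the 4 passed the test.

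Puberty 2 lay outside the range of the other 8 libraries for 47 of the 60 RAB genes, above them for 13 and below them for 34 (78.3%, 21.7% and 56.7%). Of all genes, 72.9% lay outside, 20.3% above and 52.6% below, so the RAB genes were near the rest in this. Each other library lay outside the range of the remaining 7 for 5 to 23 RAB genes. That count is against 7 libraries, not 8, and has no share of all genes beside it. It therefore cannot be read as a trait of the RAB genes. RAB13 was 11.9 times the median of the other 8 libraries in Puberty 2, RAB6A 3.80 times and RAB7B 2.73 times. At the other end RAB23 and RAB4A were listed at 0, and RAB3GAP1 was at 0.0479 of the median. Some close relatives were pulled apart, with RAB11B at 2.14 times and RAB11A at 0.60 of the median, and RAB4B at 1.88 times with RAB4A at 0. Others came closer than in any of the 8 libraries. RAB6B was 1.88 times RAB6A against 6.64 to 52.3, and RAB7A was 14.9 times RAB7B against 15.8 to 171. RAB8B was 5.73 times RAB8A, within the range of 2.13 to 47.1.

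The regulators of RAB proteins were taken from 4 lists of 115 genes in all, of which 106 passed the filter. In limma 0 of the 106 were called in any of the 3 comparisons, beside 0% of all genes in each. At an unadjusted p below 0.05 they numbered 0, 3 and 1 in prepuberty versus puberty, puberty versus postpuberty and prepuberty versus postpuberty (0%, 2.83% and 0.943%, against 1.64%, 2% and 0.73% of all genes). Without Puberty 2 they numbered 2, 3 and 2 (1.89%, 2.83% and 1.89%, against 1.55%, 1.97% and 1.79%). An r of at least 0.8 with the neuron marker mean was reached by 6 of the 106 (5.66%, against 7.87% of all genes), and an r of -0.8 or less by 3 (2.83%, against 5.04%). Among the GDI and prenylation genes RABAC1, a receptor for prenylated RABs, ranged from 103 to 142 FPKM in the 8 libraries and was 518 in Puberty 2. GDI2, one of the GDI proteins, ranged from 87.7 to 107 FPKM in the 8 libraries, had an r of 0.84 with the neuron marker mean (exact permutation p = 0.00642, adjusted p = 0.0793), and was 8.47 in Puberty 2. Over the 8 libraries the most abundant exchange factors were DENND5A (46.2 to 73.4 FPKM, 30.6 in Puberty 2), which acts on RAB39, and SBF1 (7.42 to 26.7, 17.4 in Puberty 2). The most abundant GTPase activating proteins were EVI5L (29.6 to 39.7 FPKM, 25.8 in Puberty 2) and TBC1D12 (23.1 to 38.6, 12.9 in Puberty 2). Of the effectors, the proteins that bind active RABs, RILPL1 (21.4 to 33.6 FPKM, 31.4 in Puberty 2) and PLEKHM2 (24.1 to 31.3, 33.2 in Puberty 2) led, and RILP was listed at 0 in all 9 libraries.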

How the data were processed

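Hypothalamus RNA of 9 sheep was sequenced by the authors, who trimmed the reads with Trimmomatic, aligned them with HISAT2 to ARS-UI_Ramb_v3.0, and then built a merged transcript set in StringTie. Although the deposited table is described as raw counts, it holds FPKM for 115108 transcripts. RefSeq mRNA transcripts (76682 of 76684 matched to a gene) were summed per gene, and assembled transcripts without a RefSeq name were not counted. RAB3D, RAB6C, RAB41, RAB40A and RAB40AL were not analysed here.

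Genes with a mean of at least 0.5 FPKM over the 9 libraries (13696) were tested with limma 3.58.1 in R 4.3.3 on log2(FPKM + 1), with 3 stages in 1 fit, a trend of variance and Benjamini-Hochberg adjustment over all genes. Calls needed a log2 fold change of 1 or more in size and an adjusted p below 0.05. Fold changes are on the log2(FPKM + 1) scale and understate those of low genes. No scaling between libraries was applied. Correlations used exact permutation over 8 libraries (Python 3.11.15, numpy 2.4.6, pandas 2.3.3, scipy 1.17.1). The scripts were tested on simulated data. Mapped reads (19347227 to 23966519 per library) and ages are as the study gives them, not values computed from the table. The limma p-values rest on the spread between animals. The correlation p-values rest on all orders of the libraries, taken without regard to stage.

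The members, the lists of routes, regulators and markers, and the tests were chosen with earlier results of these data known. Genes named are, per route, the 3 most abundant, those whose stages did not overlap with and without Puberty 2, the 5 highest and 5 lowest in neuron correlation, the 3 lowest, the 3 largest ratios of Puberty 2 in each direction, and the 2 most abundant of each regulator list, with others beside them. Alternatives covered pseudocount, filter, scaling, robust variance, a replicate block, a neuron marker covariate, the fold minimum, the top transcript per gene and each library left out.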

Additional observations from a re-analysis of the deposited data

How the results depend on the processing

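The count of RAB genes called between stages was 0 in each comparison under all 24 alternatives, with a smallest adjusted p of 0.513. With the replicate number as a block it was 0, and so was the count without Puberty 2. Over all genes the smallest adjusted p in limma was 0.340 with equal totals, 0.578 with upper quartile scaling and 0.5775 with quantile normalization. Without Puberty 2 it was 0.218, so no gene was called under these alternatives either. No share of all genes called is given for the remaining alternatives. The correlation of same-numbered libraries, as deviations from their stage means, ran from -0.32 to 0.52 and exceeded 0.1 in 2 of 9 pairs. With 3 libraries per stage these values cannot decide whether the replicate numbers pair animals. Equal totals moved the median log2 fold change of all genes to 0.29 in prepuberty versus puberty and to -0.31 in puberty versus postpuberty, and quantile normalization to 0.0017 and -0.0036, so directions of small fold changes depend on the scaling.

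With 1 library left out a stage has 2 animals and avoids overlap more often in any gene. Counts of RAB genes whose stages do not overlap were then 5 to 10 in prepuberty versus puberty (10.8 to 15.5% of all genes), 5 to 14 in puberty versus postpuberty (13.7 to 20.2%) and 4 to 12 in prepuberty versus postpuberty (9.07 to 17.2%), and the members' shares lay on both sides of those of all genes. In the last comparison upper quartile scaling and quantile normalization gave 2 each (3.79% and 4.07% of all genes).

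Each count of RAB genes following a marker mean below is in either direction, with the share of all genes under the same alternatives in brackets. For neurons it was 10 (12.9%), 8 to 19 with each library left out (12.8 to 20.6%; 19 without Postpuberty 3, of which 7 at -0.8 or less) and 9 to 13 under the other alternatives (11.4 to 19.4%). With all 9 libraries the r of RAB11B turned to -0.31. For oligodendrocytes it was 12 (13.4%), 1 with all 9 libraries (2.42%) and 21 with stage means subtracted (20.7%). For microglia it was 10 (10.3%), 5 with all 9 libraries (3.35%) and 7 to 15 with each library left out (7.76 to 15.9%). For endothelium it was 13 (18.4%), 2 with all 9 libraries (7.09%) and 10 to 21 with each library left out (16.1 to 23.7%; 21 without Prepuberty 3 and without Postpuberty 3). The share of all genes moved the same way as the count with all 9 libraries for the oligodendrocyte, microglia and endothelial lists, and with stage means subtracted for the oligodendrocyte list. The causes of these shifts were not tested. The fits with a block, with a neuron covariate and with upper quartile scaling that also left out Puberty 2, and the microglia and endothelial lists, were chosen after seeing the data.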
